A study of Mus musculus with 14 samples.

Results

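The 9 assembled loci described here lie at the proximal edge of the segment of mouse chromosome 16 that is present in an extra copy in Dp(16)1Yey mice. They were 4 unnamed loci of the deposited gene table, XLOC_021478, XLOC_021479, XLOC_021480 and XLOC_021481, and 5 protein-coding genes, Rbm11, Hspa13, Samsn1, Nrip1 and Usp25. These 9 were taken out of 59796 loci in the table. The 4 unnamed loci were chosen on their values in Dp(16)1Yey and littermate hippocampi, and the 5 genes were listed by name, with their fold changes in the same contrast already known. The values of that contrast are therefore given as a description. Calls over all loci and limma's intervals stand beside them, and none is read as a test of the 9 loci. Of the 9 loci, 6 had a mean of at least 10 normalized fragments over all libraries.

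The data were RNA-seq values of embryonic hippocampus, dissected between embryonic day (E) 16 and E18, from 14 embryos in 4 groups. The Dp(16)1Yey group (Dp(16Lipi-Zfp295)1Yey, n = 4) carries an extra copy of the chromosome 16 segment from Lipi to Zfp295, now called Zbtb21, and was compared with wild-type littermates (n = 4). The 189N3 group (a Dyrk1a transgenic line, n = 3) carries an extra copy of the Dyrk1a gene on a bacterial artificial chromosome and was compared with its own wild-type littermates (n = 3), so that it has the usual number of copies of all 5 named genes. A cross of heterozygous mice with C57BL6 is described for the study's cultures. The hippocampus was sampled as a tissue, so a lower share of a cell type and less RNA per cell cannot be told apart. Each group is 1 line, the sex of the embryos was not given in the sources used here, and no label states how many litters the embryos came from.

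A duplicated segment raises the number of gene copies in every cell from 2 to 3, and a gene whose RNA follows copy number would rise 1.5-fold, or 0.58 on the log2 scale. At the ends of such a segment, sequences that are apart on a normal chromosome are joined. Of the genes at this end, Lipi encodes a membrane-associated phospholipase and Rbm11 a splicing regulator known from brain and testis. Hspa13 encodes an endoplasmic reticulum member of the Hsp70 chaperone family, Samsn1 an adaptor protein known from blood cells, Nrip1 a corepressor of nuclear receptors, and Usp25 a deubiquitinating enzyme.

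The positions of the genes were read from GENCODE vM21 on GRCm38 (mm10, the build of the study). Lipi, on the reverse strand, lies at chr16:75540514-75586061. Rbm11 follows at chr16:75592844-75602829 on the forward strand, starting 52 kb after the start coordinate of Lipi. Hspa13 lies at chr16:75745431-75767104, Samsn1 at chr16:75858793-76022281 and Nrip1 at chr16:76287400-76373827, each on the reverse strand, and Usp25 at chr16:77013706-77116780 on the forward strand, 1473 kb from Lipi. Robo2, which encodes a receptor for Slit guidance proteins, is the last protein-coding gene before the segment, at chr16:73891839-74411825 on the reverse strand. Between Robo2 and Lipi there are 1129 kb with 8 annotated genes, of which 0 are protein-coding and 4 are on the reverse strand. The map from assembled transcripts to known genes gives the 4 unnamed loci 1 transcript each, of the class used for intergenic transcripts, with Robo2 as the nearest known gene, and gives no coordinates for them. Rows of the table follow the genome within a strand, in 295 of 296 neighbouring pairs of named reverse-strand genes of chromosome 16, and the numbers of the 4 loci run between those of Robo2 (XLOC_021476 and XLOC_021477) and Lipi (XLOC_021482). Their place is inferred from that order, and no sequence is printed for them.

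The sequences before the annotated starts of Rbm11 and Nrip1 are shown because Rbm11 is the gene nearest to Lipi and Nrip1 the one of the 5 with the widest spread among Dp(16)1Yey embryos. They are from RefSeq (GRCm38.p6), run 5′ to 3′ on the strand of the gene, and stop before the first base of any GENCODE exon. Capitals mark each GC box, GGGCGG, searched on both strands and counted with overlaps. The pieces lie at chr16:75592641-75592843 (forward strand) for Rbm11, and at chr16:76373828-76374077 and chr16:76373050-76373299 (reverse strand) for the outer and the inner start of Nrip1.
Rbm11: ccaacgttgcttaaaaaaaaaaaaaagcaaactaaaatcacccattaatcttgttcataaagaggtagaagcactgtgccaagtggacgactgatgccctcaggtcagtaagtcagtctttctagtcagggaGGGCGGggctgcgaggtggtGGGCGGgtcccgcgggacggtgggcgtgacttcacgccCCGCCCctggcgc
Nrip1, outer start: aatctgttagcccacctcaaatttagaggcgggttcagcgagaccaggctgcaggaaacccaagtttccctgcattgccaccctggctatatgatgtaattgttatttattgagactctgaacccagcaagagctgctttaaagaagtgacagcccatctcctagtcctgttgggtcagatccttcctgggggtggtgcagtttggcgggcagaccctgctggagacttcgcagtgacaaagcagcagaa
Nrip1, inner start: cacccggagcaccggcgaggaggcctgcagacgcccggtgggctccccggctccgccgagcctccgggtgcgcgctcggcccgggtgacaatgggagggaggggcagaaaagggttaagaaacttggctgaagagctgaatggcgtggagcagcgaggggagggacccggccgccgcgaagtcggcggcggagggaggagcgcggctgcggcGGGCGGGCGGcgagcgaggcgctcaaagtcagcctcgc

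Rbm11 had 3 GC boxes before its start, the inner start of Nrip1 had 2 that overlap and the outer start had 0. A GC box was present in 32.7% of the 32851 RefSeq windows of 250 bases. The same 250 bases held 20 CpG dinucleotides at Rbm11, 4 at the outer and 32 at the inner start of Nrip1, 47 at Usp25 and 3 at Samsn1, against a median of 6 over all windows. The motifs CCAAT (33.8% of all windows), TATAAA (12.4%), GAANNTTC (the core of the heat shock element, 6.69%) and CGGAAG (an ETS core, 13.6%) had 0 matches on either strand in the windows of Rbm11, Samsn1, Nrip1 and Usp25. No window of Hspa13 was among the 32851 used here.

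Values are normalized fragments, that is, fragments per locus divided by 1 size factor per library. The 14 libraries held between 20809135 and 29098454 fragments, and 1 fragment was worth between 0.816 and 1.21 units. Dyrk1a stood between 3938 and 5877 in 189N3 and between 2126 and 2977 in its littermates, without overlap. Dyrk1a also lies in the Dp(16)1Yey segment, and there it stood between 2124 and 4781 against 2397 to 3175 in the littermates, with overlap. Over 82 other genes of the segment, the median level lay 0.69, 0.58 and 0.38 (log2) above the littermate mean in Dp(16)1Yey replicates 0, 2 and 3, and 0.06 above it in the library labelled Dp(16)1Yey replicate 1, where 44 of the 82 genes were above the mean. This library goes against its label by that measure. It was kept under the label. Fold changes of the 9 loci, gene lists and differences between the models are given with and without it, and isoforms, antisense loci and likeness with it only. Littermate replicates 0 and 1 of Dp(16)1Yey differed by 1.65 times counting noise and replicates 2 and 3 by 2 times, where other pairs within a group differed by 8.93 to 110 times. They were kept as 4 samples, and since no label states separate litters, p-values measure only the spread between these samples. The same holds for limma's standard errors and intervals, which count the nearly alike littermates as separate samples. Summed markers of hippocampal and pallial neurons (9 of 10 found) lay between 18770 and 29425 in all 14 libraries, and those of erythroid cells (5 of 6 found) between 6139 and 48387 in Dp(16)1Yey and between 4559 and 17127 in its littermates. In the 189N3 line, erythroid markers lay between 13859 and 22137 in 189N3 and between 33789 and 54237 in the littermates, and striatal markers (7 of 8 found) between 2214 and 3575 against 1915 to 2199, without overlap in either list. The part of such cells in the results was not tested.

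The 4 unnamed loci were detected in Dp(16)1Yey replicates 0, 2 and 3 and were at or near 0 in every other library. XLOC_021478 stood at 642, 408 and 437 normalized fragments in replicates 0, 2 and 3, and at 0 in the library labelled replicate 1. Its littermates stood at 0, 1.98, 0 and 0, where 1.98 units are 2 fragments. XLOC_021478 was at 0 in all 6 libraries of the 189N3 line. The 3 high libraries and the 11 others did not overlap.

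XLOC_021479 stood at 31.6, 41.8 and 25.2 in replicates 0, 2 and 3, and at 0 in each of the 11 other libraries. XLOC_021480 stood at 15.8, 11.2 and 15.1 in the same 3 libraries and at 0.846, or 1 fragment, in 189N3 replicate 0. XLOC_021481 stood at 37.6, 37.8 and 45.3 in those 3 libraries. The other values of XLOC_021481 above 0 were 1.04 in 189N3 replicate 2 and 2.60 in littermate replicate 0 of that line. The same 3 libraries were thus high for all 4 loci.

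**Figure D1:**
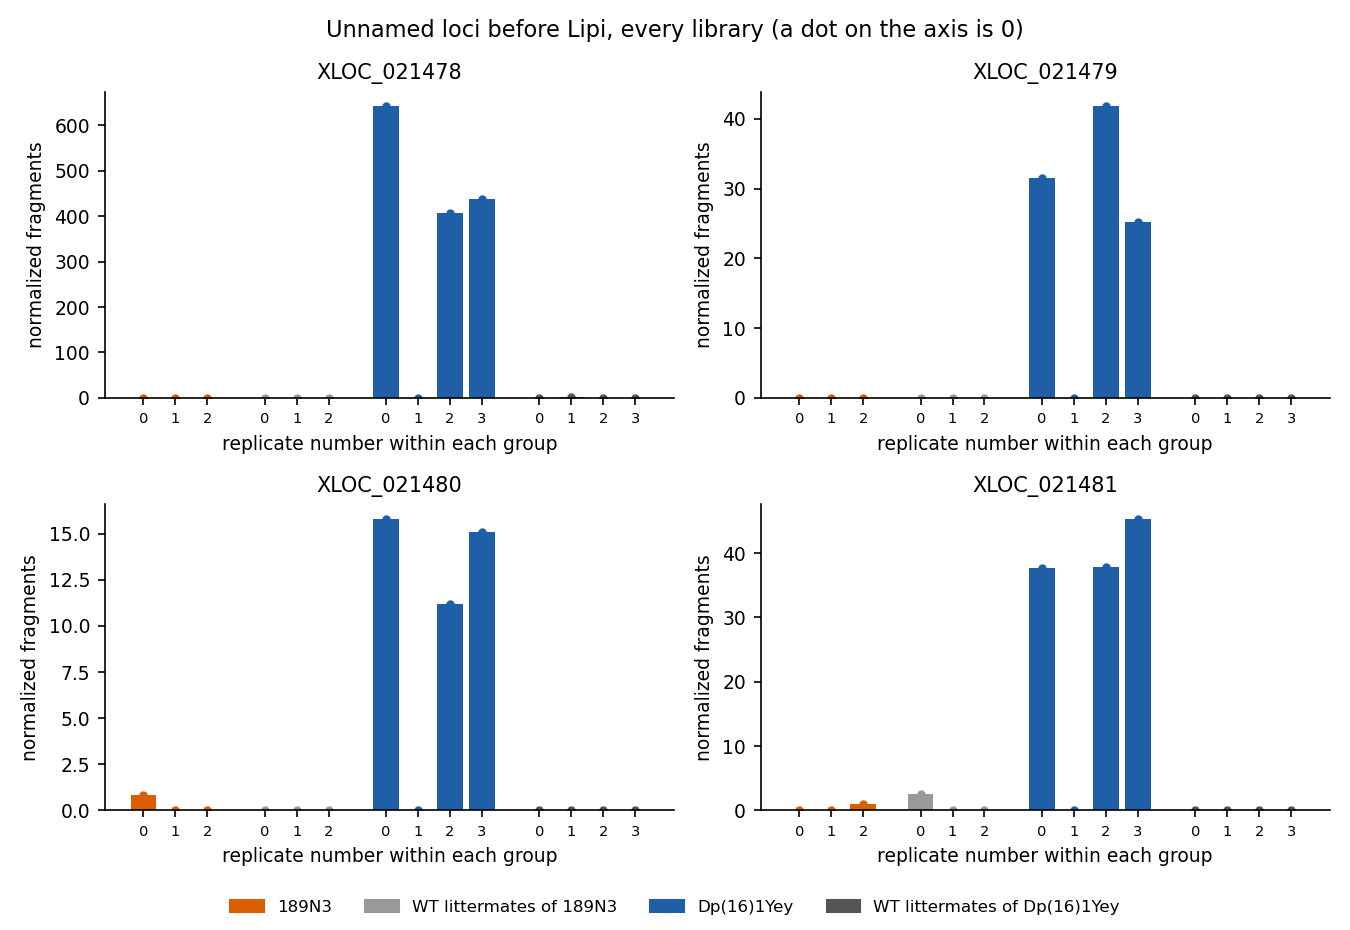
Normalized fragments (vertical axis, from 0, with its own range in each panel) of the 4 unnamed loci in all 14 libraries, 1 bar per library in 4 groups, with the replicate number below. Dp(16)1Yey replicates 0, 2 and 3 reach 408 to 642 for XLOC_021478 and 11.2 to 45.3 for the other loci, and the library labelled Dp(16)1Yey replicate 1 is at 0 in each panel.

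Over the 4 Dp(16)1Yey libraries XLOC_021478 had 372 ± 269 units (SD, n = 4) against 0.495 ± 0.990 (SD, n = 4), or 1483 fragments against 2. The ratio of fragments was 742, with an exact 95% interval from 205 to 6128 that covers counting error only. With all littermate libraries at 0, the other loci can be given only a bound against the floor of 3 fragments per library, averaged over the littermates (3.08 units). XLOC_021479 was at least 8-fold, XLOC_021480 at least 3.42-fold and XLOC_021481 at least 9.78-fold higher. Without the library labelled replicate 1 the means were 496 ± 127, 32.9 ± 8.41, 14 ± 2.47 and 40.2 ± 4.40 (SD, n = 3). A value of 0 in a library allows up to 3 fragments, worth 2.45 to 3.63 units.

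XLOC_021478 took 88.3%, 81.8% and 83.6% of the fragments of the 4 loci in replicates 0, 2 and 3. The sum of the 4 loci was 727 units in replicate 0, 499 in replicate 2 and 522 in replicate 3. XLOC_021479 amounted to 4.93%, 10.3% and 5.76% of XLOC_021478 in these libraries, XLOC_021480 to 2.47%, 2.75% and 3.46%, and XLOC_021481 to 5.86%, 9.25% and 10.4%. The lengths of the loci are not given, so these are shares of fragments and not of molecules.

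A pattern of at most 3 fragments in each of the 10 libraries of the other groups and at least 10 units in 3 or more Dp(16)1Yey libraries was met by 4 of the 59796 loci (0.00669%), which were these 4. The loci were chosen on these values and the limits of the pattern were set with them known, so this count restates the choice. With at least 10 units in 1 or more Dp(16)1Yey libraries, 107 loci met it. Robo2 and Lipi are on the reverse strand, so row order on the forward strand gives only the stretch between Robo1 and Rbm11. In it, 59 unnamed loci had Robo2 or Lipi as nearest known gene, and some may lie outside the interval between Robo2 and Lipi. Of the 59 loci, 0 had the pattern. The 39 of these with a mean of at least 10 had log2 fold changes between -0.64 and 0.73 with a median of 0.14. In 0 of the 39 was each Dp(16)1Yey library above each littermate library. Over all 36024 loci tested the share was 1.72%, so nothing is read from this count. Lipi itself, the gene next to the 4 loci, had 0 to 2.71 units in the 14 libraries. Robo2, on their other side, is held as 2 rows, XLOC_021476 with 2331 ± 1007 against 2037 ± 940 (SD, n = 4) and XLOC_021477 with 1081 ± 540 against 618 ± 163 (SD, n = 4), and in each row the groups overlapped.

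Of the 5 named genes, Hspa13 and Usp25 were higher in each of the 4 Dp(16)1Yey libraries than in each of their littermates, and Nrip1, Rbm11 and Samsn1 overlapped. Over all 36024 loci tested in this contrast, 1.72% had each Dp(16)1Yey library above each littermate library, a share given beside the 2 of 5 genes from which nothing is read, since the genes were chosen with this contrast known. The median log2 fold change was 0.62 over the 5 genes, 0.42 over the 82 other genes of the segment and 0.03 over all loci tested. Of those 82 genes, 27 had each Dp(16)1Yey library above each littermate, and with the library labelled replicate 1 left out 45 had, with a median of 0.54. Over all 9 loci it was 0.71, and it was also 0.71 with the 3 loci at 0 in the littermates taken at their bound. With an adjusted p under 0.05, limma called 0 of the 36024 loci (0.0%), which included 8 of the 9, all but XLOC_021480. There were 1273 loci at an unadjusted p under 0.05, and those that were higher in Dp(16)1Yey made up 1.71% of all tested. The quasi-likelihood test of edgeR on recovered fragments called 0, and DESeq2 called 8 loci, of which 0 were among the 9.

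**Figure D2:**
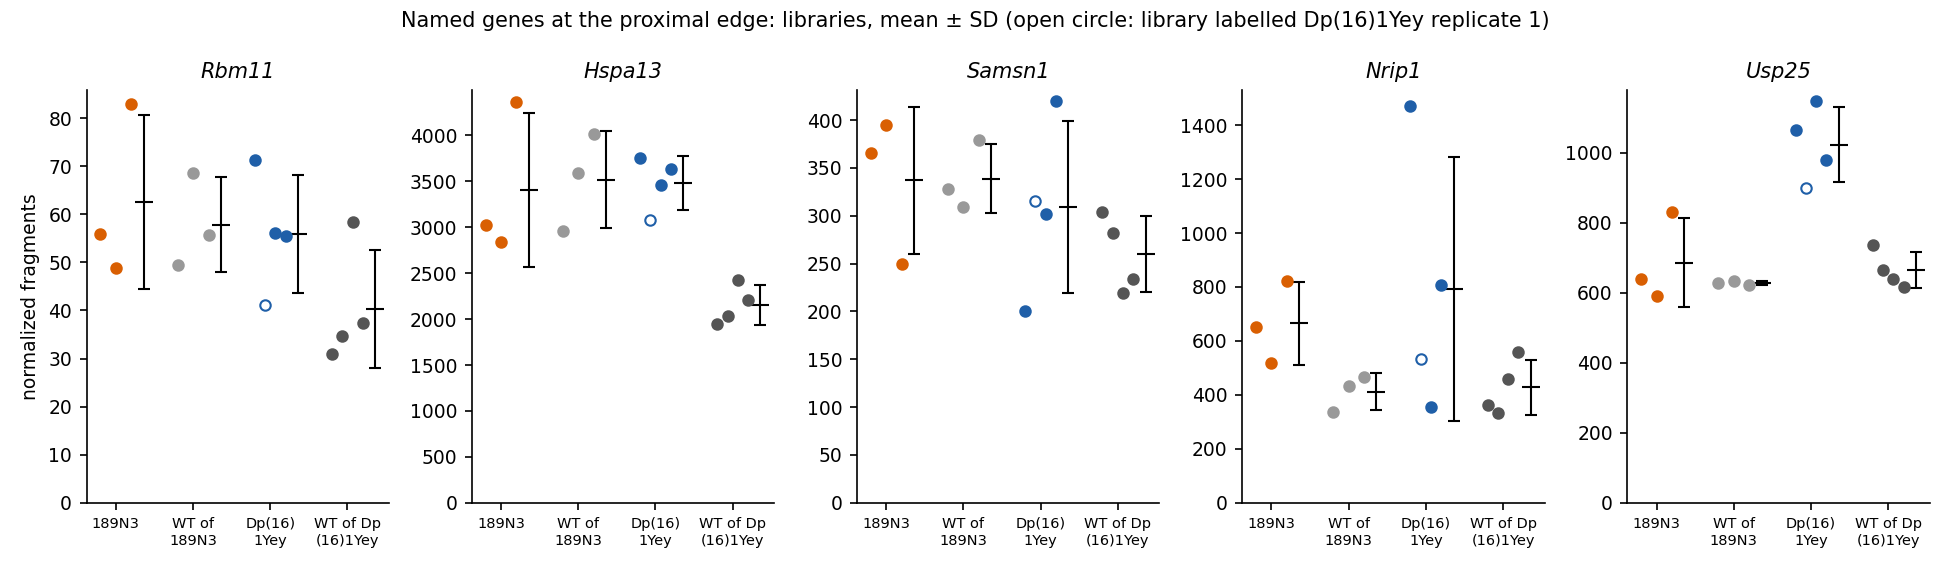
Normalized fragments (vertical axis, from 0) of the 5 named genes, 1 point per library in 4 groups, with the mean and SD of each group beside the points. For Hspa13 and Usp25 all 4 Dp(16)1Yey points lie above the 4 littermate points, and for Nrip1 the Dp(16)1Yey points spread from 354 to 1470.

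Rbm11, the splicing regulator closest to Lipi, stood at 71.2, 41.1, 56.1 and 55.4 in Dp(16)1Yey replicates 0 to 3. Its littermates stood at 30.9, 34.6, 58.3 and 37.4. One littermate lay above 3 of the 4 Dp(16)1Yey libraries, so that the groups overlapped. The means were 56.0 ± 12.3 against 40.3 ± 12.3 (SD, n = 4), which is a log2 difference of 0.48 (SE 0.26), and 0.62 (SE 0.26) without the library labelled replicate 1.

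Hspa13, the chaperone gene, stood at 3756, 3083, 3460 and 3634 in Dp(16)1Yey replicates 0 to 3. Its littermates stood at 1942, 2032, 2429 and 2204, all below the lowest Dp(16)1Yey library. The means were 3483 ± 293 against 2152 ± 214 (SD, n = 4), a ratio of 1.62 and a log2 fold change of 0.70 (SE 0.14, 95% interval 0.38 to 1.01). Without the library labelled replicate 1 it was 0.75 (SE 0.14). That library held 3083 units of Hspa13, above every littermate, although the 4 unnamed loci were at 0 in it.

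Samsn1, the adaptor gene, stood at 200, 315, 302 and 420 in Dp(16)1Yey replicates 0 to 3, and its littermates at 304, 282, 219 and 234. Replicate 0 was the lowest and replicate 3 the highest of the 8 libraries. The log2 fold change was 0.21 (SE 0.23), with a 95% interval from -0.29 to 0.72, which includes both 0 and 0.58. It was 0.19 without the library labelled replicate 1.

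Nrip1, the corepressor gene, stood at 1470, 534, 354 and 808 in Dp(16)1Yey replicates 0 to 3, and its littermates at 364, 333, 457 and 560. Replicates 0 and 3 were above all littermates and replicate 2 was below 3 of the 4. The means were 792 ± 490 against 428 ± 103 (SD, n = 4), which is a log2 difference of 0.71 (SE 0.37) with a 95% interval from -0.09 to 1.52, and 0.84 (SE 0.41) without the library labelled replicate 1. Leaving out 1 library at a time moved it between 0.35, without Dp(16)1Yey replicate 0, and 1.03, without Dp(16)1Yey replicate 2.

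Usp25, the deubiquitinase gene and the farthest of the 5 from Lipi, stood at 1066, 900, 1149 and 981 in Dp(16)1Yey replicates 0 to 3. Its littermates stood at 738, 664, 640 and 618, all below the lowest Dp(16)1Yey library. The means were 1024 ± 107 against 665 ± 52.0 (SD, n = 4), a ratio of 1.54 and a log2 fold change of 0.62 (SE 0.15, 95% interval 0.29 to 0.95), and 0.68 (SE 0.15) without the library labelled replicate 1.

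The library labelled Dp(16)1Yey replicate 1 was thus the lowest of the 4 for Rbm11, Hspa13 and Usp25, but not for Samsn1 or Nrip1. Against the littermate mean it stood 0.52 (log2) higher for Hspa13, 0.44 for Usp25, 0.35 for Nrip1, 0.29 for Samsn1 and 0.07 for Rbm11. In the other 3 libraries Hspa13 lay 0.69 to 0.81 and Usp25 0.56 to 0.79 above it. In replicate 0, Nrip1 stood 1.81 above and Samsn1 0.36 below the littermate mean (-0.36), the widest spread of the 4 libraries.

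**Figure D3:**
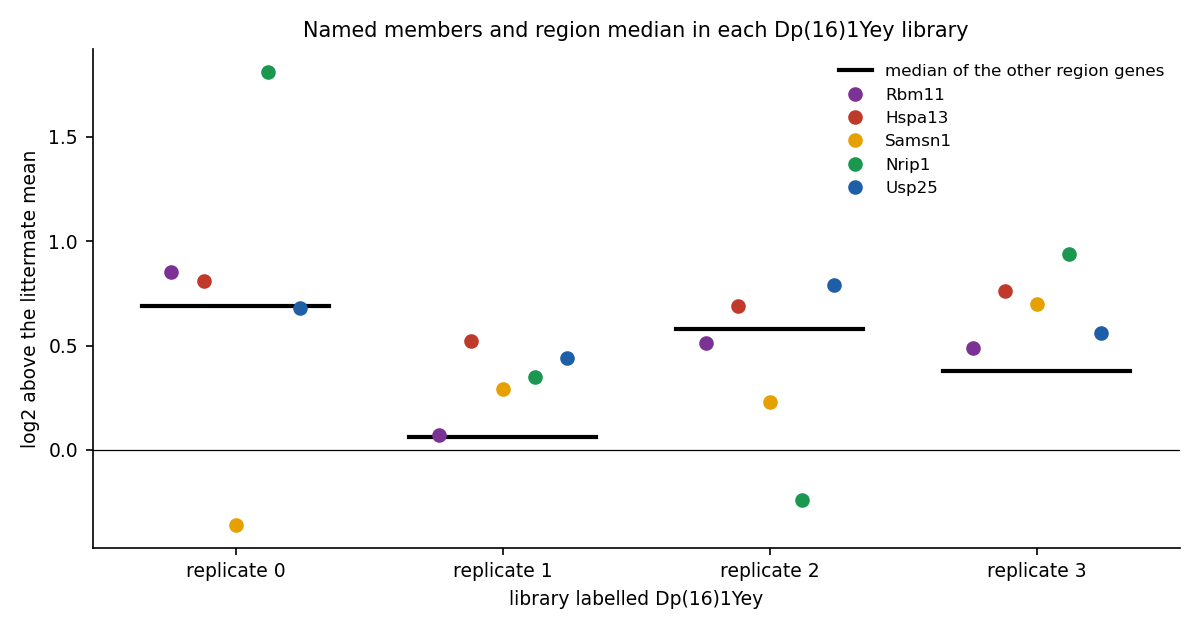
Log2 difference from the littermate mean (vertical axis) of the 5 named genes in each of the 4 libraries labelled Dp(16)1Yey, 1 coloured point per gene, with a black line at the median of the 82 other genes of the segment. The line lies at 0.69, 0.06, 0.58 and 0.38 in replicates 0 to 3, and Nrip1 runs from -0.24 in replicate 2 to 1.81 in replicate 0.

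Isoform values are estimated shares of a gene's fragments. The main isoform of Hspa13 (uc007zrp.2) held 92.8% of its fragments and had 3186 ± 261 against 2026 ± 182 (SD, n = 4). A minor one, uc007zrq.2, stood at 163 to 273 in Dp(16)1Yey and 15.8 to 124 in the littermates, and the third, uc007zrr.2, at 60.5 to 82.0 against 38.1 to 50.5. All 3 isoforms were thus higher in each Dp(16)1Yey library than in each littermate. They are parts of a gene that itself had this separation. The share of all isoforms with it was not counted, so nothing is read from it. The main isoform of Usp25 (uc007zsb.1, TCONS_00036270) held 94.4% of fragments, with 855 to 1108 against 544 to 710. For Nrip1 the estimates were uneven. The isoform uc007zry.1, with 82.4% of fragments, ranged from 14.4 to 1069 in Dp(16)1Yey and from 312 to 560 in the littermates, so that its lowest Dp(16)1Yey value lay below every littermate.

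Loci antisense to Nrip1 and Usp25 had fold changes of like size. XLOC_020468 and XLOC_020469, antisense to Nrip1, had 852 against 444 and 677 against 335 mean units, log2 fold changes of 0.84 and 0.89. XLOC_021491, XLOC_021492 and XLOC_021493, antisense to Usp25, had log2 fold changes of 0.73, 0.60 and 0.59. The groups overlapped in 4 of these 5 loci, all but XLOC_021492. Over all loci tested, 1.72% had each Dp(16)1Yey library above each littermate library. The library kit marks strand, but whether the counting used it is not stated, so reads of a gene and of its antisense partner cannot be told apart. The tested unnamed loci near the members that are not antisense were also higher. XLOC_020464, XLOC_020473 and XLOC_021485 had log2 fold changes of 0.97, 0.36 and 0.78. All these loci were named after their values were seen.

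In 189N3 hippocampi the 5 genes have no extra copy. The members were chosen with earlier results of these data known. The 189N3 values, and the absence of the 4 unnamed loci there, are therefore not shown to be independent of the choice. Nrip1 was higher in each 189N3 library than in each littermate, and the other 4 genes overlapped. Nrip1 stood at 652, 519 and 824 in 189N3 against 336, 432 and 468 in the littermates. The means were 665 ± 153 against 412 ± 68.1 (SD, n = 3), which is a log2 difference of 0.68 (SE 0.25). Its main isoform, uc007zry.1, overlapped, at 316 to 645 in 189N3 against 332 to 467 in the littermates (log2 fold change 0.22, SE 0.32). Another isoform, TCONS_00037947, was estimated at 102 ± 91.9 (SD, n = 3) in 189N3 and near 0 in the littermates. In limma over 35899 loci the adjusted p was 1.000 for Nrip1, and the exact two-sided permutation p was 0.10, the smallest that 3 against 3 allows. Of all loci tested, 1.99% had each 189N3 library above each littermate library, and 1 of the 5 genes did. In the same libraries erythroid markers were lower and striatal markers higher in each 189N3 library than in each littermate (ranges above), and their part in the Nrip1 values was not tested. At an unadjusted p under 0.05, 0.825% of all loci and 1 of the 5 genes, again Nrip1, were higher.

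Usp25 had 687 ± 127 against 628 ± 5.61 (SD, n = 3), which is a log2 difference of 0.11 (SE 0.23). Rbm11 had 62.6 ± 18 against 57.9 ± 9.8, a log2 fold change of 0.09 (SE 0.29). Samsn1 had 337 ± 76.7 against 339 ± 36.5, and a log2 fold change of -0.03 (SE 0.25). Hspa13 had 3409 ± 836 against 3521 ± 530, and -0.06 (SE 0.24). The adjusted p of each was 1.000 in limma. The 95% interval of the log2 fold change ran from -0.38 to 0.61 for Usp25 and from -0.58 to 0.45 for Hspa13. Limma called 0 of 35899 loci in this contrast (0.0%), with 672 at an unadjusted p under 0.05, edgeR called 0 and DESeq2 called 15.

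The fold changes of the 2 models differed by 0.76 (SE 0.25, 95% interval 0.23 to 1.29) for Hspa13 and by 0.51 (SE 0.23, interval 0.02 to 0.99) for Usp25, higher in Dp(16)1Yey. The difference was 0.39 (SE 0.38, interval -0.41 to 1.19) for Rbm11, 0.24 (SE 0.34, interval -0.47 to 0.96) for Samsn1 and 0.04 (SE 0.50, interval -1.03 to 1.10) for Nrip1. With the library labelled Dp(16)1Yey replicate 1 left out, the differences were 0.82 for Hspa13, 0.57 for Usp25, 0.53 for Rbm11, 0.22 for Samsn1 and 0.16 for Nrip1. These differences include the contrast that chose the genes and are given without a test. Over all loci the interaction was called in 0 of 36045 (0.0%) by limma, by edgeR and by DESeq2, with 957, 906 and 887 loci at an unadjusted p under 0.05. The littermates of the 2 lines were not alike for Hspa13, with 2960 to 4013 in the 189N3 line and 1942 to 2429 in the Dp(16)1Yey line. The level of Hspa13 in Dp(16)1Yey, 3083 to 3756, lay within the range of the 189N3 littermates, and line and batch cannot be told apart here.

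Before the segment, 12 genes from Robo2 out to Epha3 were found in the table and 10 had a mean of at least 10. The median over the 10 was 0.10 on the log2 scale in Dp(16)1Yey, with 7 above and 3 below 0. Epha3, an ephrin receptor gene that starts at -11997 kb from Lipi, was the one among the 10 with each Dp(16)1Yey library above each littermate, at 5355 ± 1399 against 3286 ± 204 (SD, n = 4) with a log2 difference of 0.67 (SE 0.18), and 0.51 (SE 0.14) without the library labelled replicate 1. The 2 nearest, Robo2 (XLOC_021476) and Robo1, a related Slit receptor gene, had 0.17 (SE 0.42) and -0.15 (SE 0.28). The second row of Robo2, XLOC_021477, was not counted among the 10 and had 0.65 (SE 0.40), with overlap of the groups. Over the 10 genes the log2 fold changes ran from -0.25 (Chmp2b) to 0.73 (Vgll3, SE 0.35), with Htr1f at 0.58 (SE 0.66).

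Inside the segment, Lipi and genes after Usp25 made a list of 15. Of these, 14 were found, Jam2 was not matched, and 13, all after Usp25, were tested. Their median log2 fold change was 0.37, with 11 above and 2 below 0, and 5 had each Dp(16)1Yey library above each littermate. Over all 36024 loci tested, 19770 were above 0 and 1.72% had this separation. These were Btg3, an antiproliferative gene (log2 fold change 0.51), Mrpl39, of the mitochondrial ribosome (0.53), Atp5j, a subunit of ATP synthase (0.61), Gabpa, an ETS transcription factor (0.61), and Cyyr1 (0.49). Of the 10 genes of the flank, 1 had this separation. With the library labelled Dp(16)1Yey replicate 1 left out, the median was 0.48 over the 13 genes, 0.04 over the flank and 0.68 over the 5 named genes. All 13 were then above 0, and 6 had the separation, against 2.54% of all loci.

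**Figure D4:**
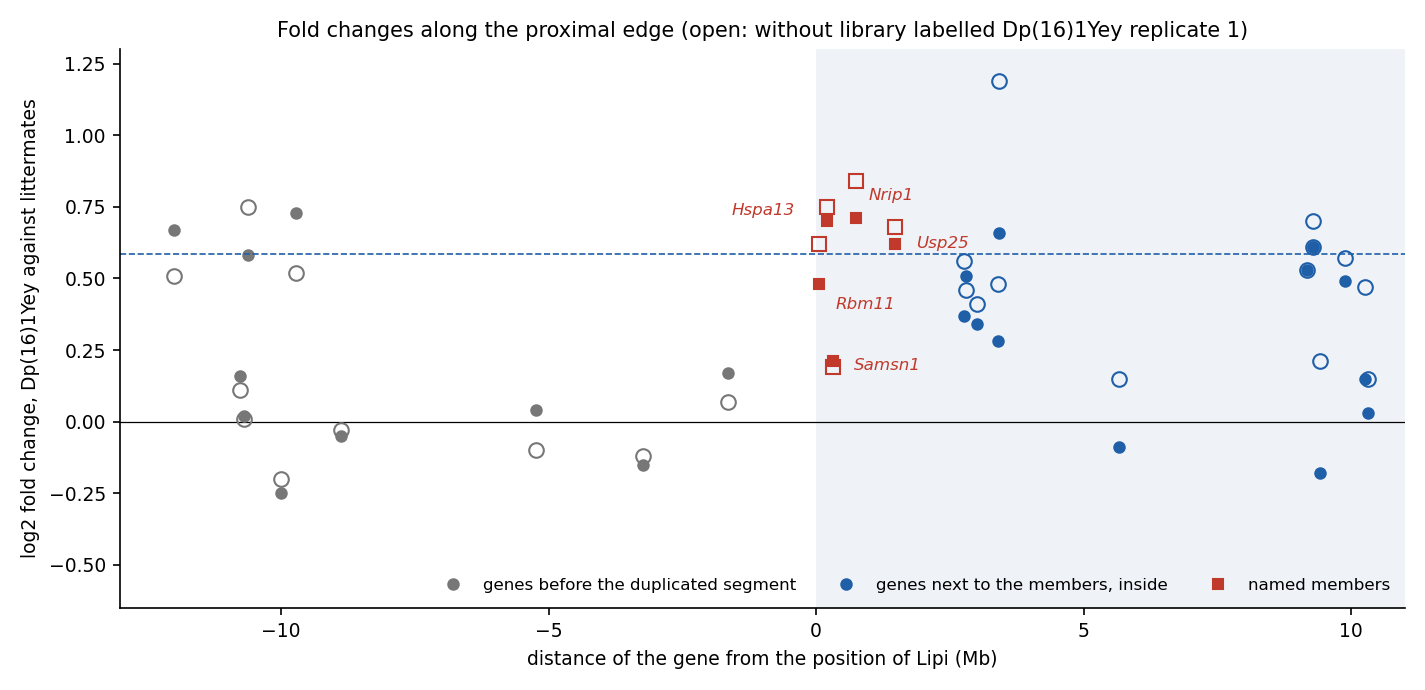
Log2 fold change of Dp(16)1Yey against littermates (vertical axis) by distance of each gene from Lipi in Mb (horizontal axis, negative before the segment), with filled symbols for all libraries and open symbols without the library labelled Dp(16)1Yey replicate 1. Shading marks the segment, which goes on past the right edge, and the dashed line 0.58, and 4 of the 5 named genes (red squares) lie between 0.48 and 0.71, with Samsn1 at 0.21.

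Related genes outside the segment had medians near or below 0. Of 14 genes of the Hsp70 family related to Hspa13, 13 were found and 11 tested, and their log2 fold changes in Dp(16)1Yey ran from -0.69 to 0.09 with a median of -0.06. None had all Dp(16)1Yey libraries above all littermates, where 1.72% of all loci tested did, so nothing is read from this count. Hspa5, the main Hsp70 chaperone of the endoplasmic reticulum, had 5254 ± 734 against 5259 ± 329 (SD, n = 4), and the interval of its log2 fold change ran from -0.34 to 0.32. Usp28, the closest relative of Usp25, had 652 ± 96.2 against 704 ± 36.5, and Rbm7, related to Rbm11, had 1573 ± 519 against 1344 ± 159. Sash1 and Sash3, related to Samsn1, had log2 fold changes of -0.38 (SE 0.20) and -0.14 (SE 0.31). Of 20 corepressors and nuclear receptors that work with Nrip1, 17 were tested, and 14 of them had log2 fold changes below 0, with a median of -0.16, where 16254 of all 36024 loci were below 0. With the library labelled replicate 1 left out, 13 of the 17 were below 0 with a median of -0.13, the Hsp70 family had a median of -0.07, and all 4 relatives of Usp25, Rbm11 and Samsn1 were below 0, so that Rbm7, at 0.18 with all libraries, changed sign. Of all loci tested without that library, 16404 of 35999 were below 0. In 189N3, 6 of the 17 genes that work with Nrip1 were below 0, with a median of 0.03, where 20159 of all 35899 loci were below 0. Limma called 0 genes of these lists in either model.

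Over the 14 libraries, each set against the littermate mean of its line, the genes with the profile most like that of Hspa13 among 11254 named genes were Cryzl1 (Pearson 0.99, Spearman 0.99), Cct8 (0.98 and 0.95) and Ttc3 (0.96 and 0.92), all inside the segment. For Usp25 they were Usp16 (0.96 and 0.76), Dnajc28 (0.96 and 0.77) and Hmgn1 (0.95 and 0.73), also inside it. XLOC_021478 was most like Donson (0.93 and 0.57), Son (0.91 and 0.68) and Gabpa (0.89 and 0.62), again of the segment. Nrip1 was most like Cdh10 (0.94 and 0.90) and Ptprz1 (0.93 and 0.89), and Samsn1 like Ccdc73 (0.95 and 0.97) and Gpr82 (0.93 and 0.87), none of which lies in it. Rbm11 was most like Rwdd2b (0.93 and 0.90) and Wrb (0.90 and 0.85), inside the segment, and Cyld (0.88 and 0.89), outside. These values share libraries and genotype groups and carry no test. XLOC_021478 was chosen for high values in Dp(16)1Yey replicates 0, 2 and 3, the libraries where the segment median was also highest. Its likeness to genes of the segment therefore restates the choice. The named genes were listed with the Dp(16)1Yey contrast known, so nothing is read from the place of the genes most like them.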

How the data were processed

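Hippocampal RNA of 14 embryos was sequenced as paired reads from libraries of a stranded total RNA kit, while the labels give the molecule as polyA RNA. Per the labels and the study's methods, reads were aligned with TopHat and Bowtie to mm10 and assembled and quantified with Cufflinks, correcting for bias and for reads mapping to several places. Versions are not given in the sources used here. The authors deposited a gene table and an isoform table in a signal unit, that is, each library's fragments per locus scaled by 1 size factor, and a map of assembled transcripts to known genes. Whole fragments were recovered in each library (tolerance 0.01). In all, 52117 loci were matched to the map locus whose isoforms sum to them, and 20547 received a symbol. For 8 map loci the sum was that of 2 neighbouring rows together.

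Contrasts were fitted with limma 3.58.1 in R 4.3.3 on log2(value + 1), with a variance trend, for loci with a mean of at least 10, with Benjamini-Hochberg adjustment at 0.05. A fold change on this scale understates the change of low loci. The plan named edgeR as the main test only for raw counts, so edgeR 4.0.16 and DESeq2 1.42.0 on recovered fragments were alternatives. Scripts were tested on simulated data. Replicate numbers were not treated as pairs. The members and lists were chosen with earlier results of these data known. The named genes were all 9 members, then whole lists of flanking, neighbouring and family genes as counts, and for likeness the 3 genes with the highest correlation. The interval of the fragment ratio and the floors cover counting error only, since reads had no molecular identifiers, and intervals of fold changes are limma's and cover the spread between libraries. Jam2, Hspa1l and Rora were not matched to a row.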

Additional observations from a re-analysis of the deposited data

Results flagged for a closer look

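Single libraries that stood apart were looked for in the 15 sets of 4 libraries, 1 locus in 1 group each, that had any spread, by the gap to the nearest library over the whole range (Dixon's 95% limit). Chance marks about 1 in 20 such sets, and 2 were marked. XLOC_021478 in the littermates of Dp(16)1Yey had a gap share of 1.00, because replicate 1 stood at 1.98 units, or 2 fragments, and the other 3 libraries at 0. XLOC_021481 in Dp(16)1Yey had a gap share of 0.83, because the library labelled replicate 1 stood at 0 and the others between 37.6 and 45.3. Since this locus was chosen on these values, the mark restates the choice.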

How the results depend on the processing

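The 5 named genes kept the sign of their fold change in Dp(16)1Yey under every alternative run, namely pseudocounts of 0.1 and 10, no filter and a mean of at least 100 (which drops Rbm11), median-ratio and quantile scaling, limma without trend, 1 fit of the 4 groups, averaging of the nearly alike littermates, edgeR, DESeq2, a replicate block, each library left out and the sum of rows per symbol. The median over the 9 loci ranged from 0.66 to 1.03 on the log2 scale, both with 1 library left out. In Dp(16)1Yey, 8 loci were called by DESeq2, and 0 to 3 with 1 library left out. The 3 were XLOC_021478, XLOC_021479 and XLOC_021481, without the library labelled Dp(16)1Yey replicate 1 (log2 fold changes 8.53, 5.05 and 5.36), and since these loci were chosen for that pattern the calls are no support for it. In 189N3, 3 loci were called with median-ratio size factors, 15 by DESeq2, and 0 to 28 with 1 library left out, 28 without littermate replicate 1 and 2 without littermate replicate 0, none of them among the 5 genes. The interaction had 0 to 1 calls, the 1 being XLOC_021478 (8.53) without the library labelled Dp(16)1Yey replicate 1. With 1 library left out, fold changes in 189N3 changed sign for Rbm11 (-0.13 to 0.24), Hspa13 (-0.25 to 0.06), Samsn1 (-0.16 to 0.17) and Usp25 (-0.03 to 0.22), as did the difference between the models for Nrip1 (-0.33 to 0.36). Samsn1 in 189N3 was 0.00 with median-ratio and with quantile scaling and 0.01 with DESeq2, and the Nrip1 difference was -0.02 with median-ratio size factors. The cause of these changes was not tested.

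Replicate numbers did not pair the samples, with correlations of same-numbered deviations from -0.581 to 0.00895. Between differently numbered samples they ran from -0.658 to 0.636. Dp(16)1Yey replicate 0 had 0.588 and 0.636 with littermate replicates 2 and 3. Dp(16)1Yey replicate 2 had 0.589 and 0.565 with littermate replicates 0 and 1. The fits do not model this likeness, and its cause was not tested. With the number as a replicate block, 72 loci were called in 189N3 and 0 in Dp(16)1Yey and the interaction, and no member changed its call. Depth limits the 4 unnamed loci, whose values of 0 allow up to 3 fragments a library.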
